A study of Schizosaccharomyces pombe with 9 samples.

Results

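The mug and meu genes of fission yeast (Schizosaccharomyces pombe) were followed in growing cells of 3 strains. The names come from screens for genes whose RNA goes up in meiosis: mug stands for meiotically upregulated gene and meu for meiotic expression upregulated. Members were all genes whose standard name is mug or meu followed by digits only. The names of the RefSeq annotation of assembly ASM294v3 were used as the standard names and were tied to the systematic identifiers of the count table. This gave 115 members among the 6988 counted features, of which 91 were mug and 24 were meu genes. All 115 had a row in the table, 110 as protein-coding genes and 5 as noncoding RNAs (meu3, meu11, meu16, meu19 and meu20). Another 92 genes carry a mug or meu name only as an older synonym, because they were renamed once a function was known, and they were not members.

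RNA with poly(A) tails was sequenced from the nup211-1435 strain (IAP105, in which the nup211 allele nup211-1435* is joined to asp1-WT::kanMX), from the strain labelled rsm1∆::natMX (ASY240) and from wild type (WT, strain Sp1), with 3 biological replicates of each. Nup211 and Rsm1 belong to the nuclear basket, the filaments on the inner face of the nuclear pore. All strains were h-, one of the 2 mating types, and were grown in YES, a rich medium, at 30 °C to log phase, which the labels call vegetative. The study's title asks how these 2 proteins affect the 3' ends of RNAs and transcription termination. Each mutant is 1 strain and carries a drug marker that WT lacks, so an effect of the allele and one of the marker or strain cannot be told apart.

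In fission yeast, meiosis normally needs mating of h- and h+ cells, a diploid nucleus and nitrogen starvation. The transcription factor Ste11 then turns on mei2, whose RNA-binding product is held back by the kinase Pat1 until the inhibitor Mei3 is made. Many meiotic genes are still transcribed at a low rate in growing cells, and their RNAs are bound by the YTH-domain protein Mmi1 and destroyed by the nuclear exosome. In the screens that named them, mug and meu genes were picked by their RNA level in meiosis alone, so their products do many different things, from spore wall assembly to amino acid transport.

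The 9 libraries held 20984220 to 28105939 gene counts, and the counts were scaled by edgeR's TMM method to CPM, counts per 1000000 counted reads. A count of 3, the limit that a count of 0 allows, was worth 0.106 to 0.139 CPM. The features named in the genotypes were all read in every strain. The rsm1 gene itself averaged 44.1 CPM in nup211-1435, 31.8 CPM in the libraries labelled rsm1∆ and 36.7 CPM in WT. The counts thus did not show the deletion that the label gives, and the reason was not tested. RNAs of the h- pheromone system summed to 136 to 139 CPM in nup211-1435, 206 to 213 CPM in the libraries labelled rsm1∆ and 171 to 196 CPM in WT, with mat1-Mc, 1 of 8 markers, at 0 in all 9. The markers of this set did not move together. The mean of mfm2 was 9.46 CPM in nup211-1435 and 17.8 CPM in the libraries labelled rsm1∆, against 45.1 CPM in WT. That of mam3 was 46.5 CPM in nup211-1435 and 74.5 CPM in the libraries labelled rsm1∆, against 41.3 CPM in WT. The h+ genes map2, map3 and map4, which mark the other mating type, summed to 40.7 to 41.1 CPM in nup211-1435, 60.9 to 69.2 CPM in the libraries labelled rsm1∆ and 40.4 to 43.6 CPM in WT. The 8 markers of cells in meiosis summed to 70.0 to 74.9 CPM in nup211-1435, 65.6 to 68.7 CPM in the libraries labelled rsm1∆ and 64.2 to 65.3 CPM in WT. Among them mei4 averaged 9.21 CPM in nup211-1435 and 9.92 CPM in the libraries labelled rsm1∆, against 4.29 CPM in WT. The reverse held for dmc1, with 2.99 CPM in nup211-1435 and 2.97 CPM in the libraries labelled rsm1∆, against 4.34 CPM in WT. The 3 spore markers isp3, mde10 and bgs2 summed to 164 to 171 CPM in nup211-1435, 194 to 199 CPM in the libraries labelled rsm1∆ and 129.7 to 139 CPM in WT. Most of this sum was bgs2, which like mde10 had a higher mean in both mutants than in WT. The mean of isp3 went the other way, with 8.60 CPM in nup211-1435 and 15.0 CPM in the libraries labelled rsm1∆, against 15.9 CPM in WT. The part of any change in the mix of cells in the results was not tested. In bulk RNA, fewer cells that express a gene and less of its RNA per cell cannot be told apart.

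Most mug and meu genes were read in growing WT cells, at low levels. The mean WT level was under 1 CPM, here called silent, for 13 of 115 members (11.3%). A further 43 members (37.4%) had 1 to 10 CPM, 51 (44.3%) had 10 to 100 CPM and 8 (6.96%) had at least 100 CPM. The median member had 10.8 CPM in WT, against 73.7 CPM over all 5111 protein-coding features, of which 187 (3.66%) were silent. These levels are not corrected for exon length, and medians per kilobase of exon were not compared. Of the 110 protein-coding members 11 were silent and the median was 11.9 CPM. Over all 6988 features, noncoding RNAs included, 1048 (15.0%) were silent and the median was 44.8 CPM. Silent members made up 9 of 91 mug genes and 4 of 24 meu genes. Among the 92 renamed genes 6 (6.52%) were silent in WT and the median was 33.4 CPM.

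The 13 silent members ranged from no count at all to just under the limit. The noncoding RNAs meu11 and meu20 had 0 counts in all 9 libraries, and mug96 had 0 in all 3 WT libraries with 2, 1 and 3 counts in nup211-1435 and 3, 7 and 0 in the libraries labelled rsm1∆. The exon of meu11 lies wholly inside another feature on the same strand, and the part of that overlap in its 0 was not tested. In WT, mug116 averaged 0.0141 CPM, mug112 0.0663 CPM, mug128 0.0965 CPM, meu26 0.212 CPM, meu15 0.283 CPM, mug93 0.291 CPM and mug131 0.600 CPM. The 3 silent members nearest to the limit were mug27 at 0.628 CPM, mug103 at 0.879 CPM and mug153 at 0.963 CPM. Just above it were mug108 at 1.00 CPM, meu32 at 1.21 CPM and meu13 at 1.24 CPM. The WT libraries of mug108 read 0.760, 1.57 and 0.686 CPM, so 2 of 3 lay under the limit.

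Of the 13 members silent in WT, 12 were also silent in nup211-1435 and 12 in the libraries labelled rsm1∆. In nup211-1435 15 members (13.0%) were silent, in the libraries labelled rsm1∆ 17 (14.8%), and 11 were silent in all 3 strains. Of all features 15.2% were silent in nup211-1435 and 14.9% in the libraries labelled rsm1∆. Of all protein-coding features the shares were 3.66% in nup211-1435 and 3.46% in the libraries labelled rsm1∆. The kinase gene mug27 was silent in WT and not in nup211-1435, and mug153 was silent in WT and not in the libraries labelled rsm1∆. In the other direction meu17, mug37 and mug146 were silent in both mutants and not in WT, and mug28 and meu3 were silent in the libraries labelled rsm1∆ alone. Of these 7 genes mug153, mug146, mug28 and meu3 were not called between either mutant and WT.

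**Figure D1:**
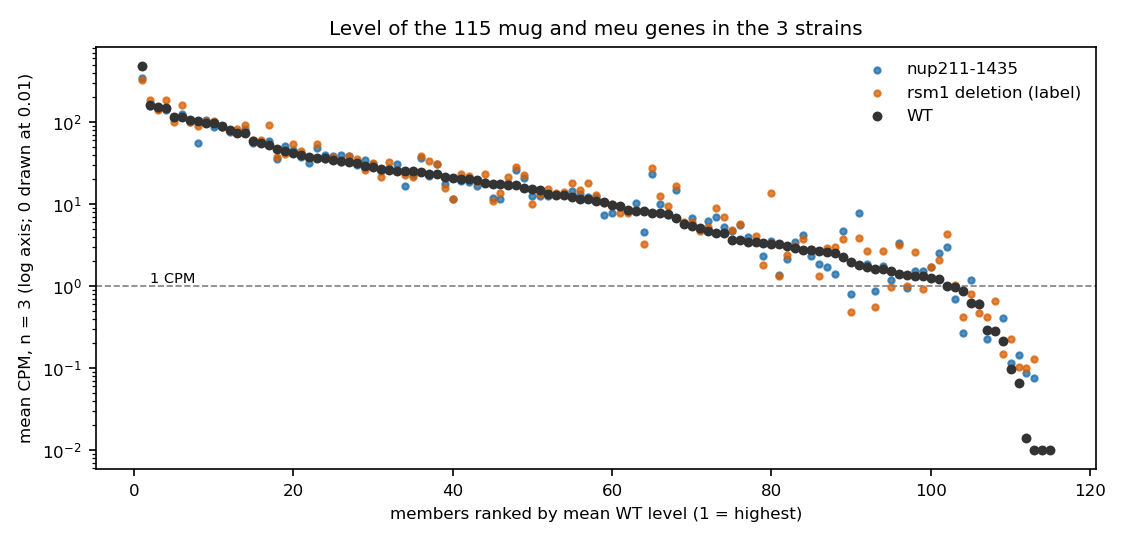
Mean level of each of the 115 members in nup211-1435 (blue), the libraries labelled rsm1∆ (orange) and WT (black), 3 libraries each, on a log axis of CPM against rank in WT; a value of 0 is drawn at 0.01. The 13 WT points below the dashed line are the silent members, and points of the mutants stay near those of WT except at ranks with low levels.

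The abundant end of the list held genes of metabolism and splicing as well as genes of unknown function. The highest, mug64, encodes a protein with a BAR domain, a membrane-shaping fold, and had 469, 493 and 477 CPM in WT. By reads per kilobase of exon, the scale on which genes can be compared, mug64 was again first in WT, followed by mug33, mug161 (a CwfJ-family splicing factor), mug168 and mug58 (glycerate kinase). The other members of highest level in CPM were mug56, a spore wall assembly protein, with 161, 165 and 164 CPM in WT, mug161, mug33 and mug70. Summed over all members, the level was 3081 to 3099 CPM in nup211-1435, 3345 to 3362 CPM in the libraries labelled rsm1∆ and 3222 to 3250.4 CPM in WT. Without mug64 the sums were 2735 to 2755 CPM in nup211-1435, 3017 to 3042 CPM in the libraries labelled rsm1∆ and 2751 to 2758 CPM in WT. The 3 groups did not overlap in the sum over all members, while without mug64 nup211-1435 overlapped with WT.

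Differences between strains were tested with edgeR's quasi-likelihood test on all 6227 features that passed a minimum count, and a feature was called at a Benjamini-Hochberg adjusted p under 0.05. The test took in 108 members. The other 7, mug96, meu20, meu11, mug116, mug112, mug128 and meu26, had too few reads. Another 5 members that were tested (mug103, meu17, mug37, mug93 and meu15) had at least 1 library under 0.395 CPM, the level of the filter, and could pass it through a strain where they are high. The replicates were tight, with a biological coefficient of variation of 3.95%, so that small differences passed the test across the table.

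In nup211-1435 against WT, 30 of 108 members rose (27.8%) and 25 fell (23.1%), and 53 were not called. Over all features tested, 64.9% were called, 32.9% higher and 32.0% lower in nup211-1435. The median log2 fold change was 0.02 over the members and 0.01 over all features. Changes of at least 2-fold were called for 7 members higher and 3 lower in nup211-1435, 9.26% of those tested, against 6.38% of all features (3.37% higher and 3.00% lower). With scaling by total counts, which moved the median of all features to 0.14, 47 members were higher and 16 lower.

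In nup211-1435 no member rose more than meu27. It had 7.72, 8.21 and 7.28 CPM in nup211-1435, against 1.81, 1.89 and 1.68 CPM in WT. All 3 mutant libraries lay far above all WT libraries, and the log2 fold change was 2.11 ± 0.14 (SE, n = 3 each, adjusted p = 4.46e-09). No function is given for the Meu27 protein in the annotation. On the opposite strand the checkpoint kinase gene chk1, which covers 96.4% of the exon of meu27, had a log2 fold change of 0.01 ± 0.04 (adjusted p = 0.876).

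Next came mug108 and mug147, both at a log2 fold change of 1.56. The gene mug147 has no annotated function, and its level was 24.1, 24.0 and 21.4 CPM in nup211-1435, against 8.57, 7.41 and 7.62 CPM in WT. The groups were well apart, with a log2 fold change of 1.56 ± 0.08 (adjusted p = 5.46e-10). The noncoding RNA SPNCRNA.1668 lies opposite 79.4% of its exon and had a log2 fold change of 0.18 ± 0.11 (adjusted p = 0.173).

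The gene mug108 had 2.31, 3.27 and 3.29 CPM in nup211-1435, against 0.760, 1.57 and 0.686 CPM in WT, and the log2 fold change was 1.56 ± 0.25 (adjusted p = 6.82e-05). The groups did not overlap, although WT library 2 was well above the other two. Its whole exon lies under a feature on the other strand, and the part of that overlap in its reads was not tested.

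The other large rises in nup211-1435 were mostly of genes without an annotated function. The log2 fold changes were 1.27 ± 0.22 for mug95 (adjusted p = 0.000115), 1.14 ± 0.10 for mug125 (adjusted p = 6.76e-08), 1.05 ± 0.22 for meu32 (adjusted p = 0.000622), 0.63 ± 0.06 for mug74 and 0.62 ± 0.15 for mug5. The amino acid permease gene meu22 rose by 0.64 ± 0.13. The groups did not overlap for any of these 6 genes, as for 67.8% of all features tested. For mug9 the value was 1.07 ± 0.33 (adjusted p = 0.0166), with 2.94, 3.97 and 7.25 CPM in nup211-1435 against 2.28, 1.97 and 2.55 CPM in WT. One mutant library was far above the other two, and without WT replicate 2 the adjusted p of mug9 was 0.0777.

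The largest fall in nup211-1435 among members that reached 1 CPM was that of mug37. It had 1.07, 0.700 and 0.636 CPM in nup211-1435, against 1.60, 1.93 and 2.36 CPM in WT (log2 fold change -1.30 ± 0.28, adjusted p = 0.000841). These levels stand for 18 to 27 counts in the mutant libraries and 38 to 62 in WT, and the groups did not overlap. The silent gene mug103 had a log2 fold change of -1.71 ± 0.39 (adjusted p = 0.00123), on 4, 10 and 7 counts in nup211-1435 against 14, 30 and 22 in WT. Only in WT were all its libraries over the filter level, so it entered the test through the strain where it is high.

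A well-expressed member, mug115, fell further in nup211-1435 than in the libraries labelled rsm1∆. Its level was 60.5, 54.8 and 52.1 CPM in nup211-1435, 88.4, 94.7 and 84.1 CPM in the libraries labelled rsm1∆ and 101, 112 and 97.1 CPM in WT. The nup211-1435 libraries were the lowest 3 of the 9, and the log2 fold change against WT was -0.89 ± 0.07 (adjusted p = 2.29e-07). Against the libraries labelled rsm1∆ it was -0.68 ± 0.07 (adjusted p = 7.35e-06). The gene SPAC56F8.13 on the opposite strand, which covers 24.0% of its exon, had a log2 fold change of -1.98 ± 0.12 against WT (adjusted p = 2.17e-09).

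Other members that fell in nup211-1435 were mug68 (log2 fold change -1.25 ± 0.23), meu17, a glucan glucosidase gene (-0.91 ± 0.25), mug124 (-0.86 ± 0.08), mug150 (-0.84 ± 0.11) and mug15 (-0.84 ± 0.21). Smaller falls were those of mug170, of the arrestin family of membrane adaptors (-0.64 ± 0.07), mug165 (-0.62 ± 0.09), meu6, a pleckstrin homology domain protein (-0.57 ± 0.08), and the transporter gene mug73 (-0.55 ± 0.12). For mug114 (-0.58 ± 0.21, adjusted p = 0.0249) the call ended with total-count scaling (adjusted p = 0.0729) and without nup211-1435 replicate 2, nup211-1435 replicate 3 or WT replicate 2, with adjusted p of 0.0535, 0.117 and 0.130.

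In the libraries labelled rsm1∆ against WT, 45 of 108 members rose (41.7%) and 22 fell (20.4%), and 41 were not called. Over all features tested, 70.7% were called, 36.7% higher and 34.1% lower in the libraries labelled rsm1∆. The median log2 fold change was 0.14 over the members and 0.01 over all features. Changes of at least 2-fold were called for 8 members higher and 6 lower, 13.0% of those tested, against 7.53% of all features (4.74% higher and 2.79% lower). With scaling by total counts, which moved the median of all features to 0.16, 58 members were higher and 14 lower.

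The clearest difference between the mutants was in mug14, which encodes an adducin, a protein of the actin cytoskeleton. Its level was 2.90, 4.32 and 3.25 CPM in nup211-1435, 14.4, 15.9 and 10.9 CPM in the libraries labelled rsm1∆ and 3.55, 3.46 and 2.82 CPM in WT. All 3 libraries labelled rsm1∆ were above the other 6, while nup211-1435 overlapped with WT. The log2 fold change against WT was 0.10 ± 0.20 in nup211-1435 (adjusted p = 0.689) and 2.08 ± 0.17 in the libraries labelled rsm1∆ (adjusted p = 7.51e-08). Between nup211-1435 and the libraries labelled rsm1∆ it was -1.98 ± 0.16 (adjusted p = 4.55e-07). No counted feature lies opposite its exon.

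The largest rise in the libraries labelled rsm1∆ was in the low range, that of mug108. It had 4.35, 4.48 and 4.17 CPM there, against 0.760, 1.57 and 0.686 CPM in WT (log2 fold change 2.11 ± 0.24, adjusted p = 1.42e-06). The gene mug147 had 27.8, 29.2 and 25.4 CPM in the libraries labelled rsm1∆, against 8.57, 7.41 and 7.62 CPM in WT. This was a rise of 1.81 ± 0.08 on the log2 scale (adjusted p = 9.05e-11), while its partner SPNCRNA.1668 was at -0.08 ± 0.12 (adjusted p = 0.550).

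Further rises were those of mug125 (log2 fold change 1.30 ± 0.10), mug95 (1.20 ± 0.22), meu27 (1.13 ± 0.15), the permease gene meu22 (1.01 ± 0.13), mug42 (0.94 ± 0.23), meu32 (0.77 ± 0.23) and mug74 (0.72 ± 0.06). The silent gene meu15 rose by 1.17 ± 0.38 (adjusted p = 0.0119), on 13, 16 and 18 counts in the libraries labelled rsm1∆ against 9, 5 and 7 in WT. Only the libraries labelled rsm1∆ were all over the filter level, so meu15 entered the test through the group where it is high. For meu18 the levels were 94.0, 96.4 and 82.1 CPM in the libraries labelled rsm1∆, against 50.8, 54.6 and 50.7 CPM in WT. It was the most abundant of the large risers, with a log2 fold change of 0.81 ± 0.06 (adjusted p = 7.82e-08), and the noncoding RNA SPNCRNA.1417 opposite 96.2% of its exon fell by 1.04 ± 0.11 on that scale (adjusted p = 5.71e-07). In nup211-1435 meu18 was at 0.15 ± 0.06 against WT (adjusted p = 0.0502), although SPNCRNA.1417 was at -1.09 ± 0.11 there (adjusted p = 4.05e-07). The rise of mug62, a putative AMP-binding enzyme gene (0.72 ± 0.23, adjusted p = 0.0109), lost its call without replicate 2 (adjusted p = 0.0642) or replicate 3 (adjusted p = 0.0507) of the libraries labelled rsm1∆, and its groups overlapped.

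The deepest falls in the libraries labelled rsm1∆ were in genes that WT cells express at a few CPM. The largest was that of mug37, with 0.262, 0.433 and 0.742 CPM in the libraries labelled rsm1∆ against 1.60, 1.93 and 2.36 CPM in WT (log2 fold change -2.08 ± 0.32, adjusted p = 3.32e-05). Second was meu17, with 0.562, 0.708 and 0.371 CPM in the libraries labelled rsm1∆ against 1.81, 1.33 and 1.71 CPM in WT (-1.53 ± 0.28, adjusted p = 0.000151). Neither gene's groups overlapped, as for 74.1% of all features tested. Close behind, mug150 had 3.07, 3.38 and 3.39 CPM in the libraries labelled rsm1∆, against 8.15, 8.05 and 8.49 CPM in WT (-1.33 ± 0.12, adjusted p = 8.76e-08).

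The list went on with mug68 (log2 fold change -1.32 ± 0.24), meu43 (-1.04 ± 0.22), the BAR adaptor gene mug137 (-0.89 ± 0.17) and mug124 (-0.87 ± 0.08). The fall of meu6 was 0.68 ± 0.08, of the alpha-amylase gene meu7 0.60 ± 0.09, of mug109, a Rab GTPase binding protein gene, 0.44 ± 0.07 and of mug165 0.37 ± 0.09 on the log2 scale. The most abundant member, mug64, had 353, 346 and 343 CPM in nup211-1435 and 328, 321 and 330.4 CPM in the libraries labelled rsm1∆, against 469, 493 and 477 CPM in WT. It thus fell in both mutants, by 0.47 ± 0.03 in nup211-1435 (adjusted p = 2.59e-09) and by 0.56 ± 0.03 in the libraries labelled rsm1∆ (adjusted p = 3.5e-10) on the log2 scale.

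**Figure D2:**
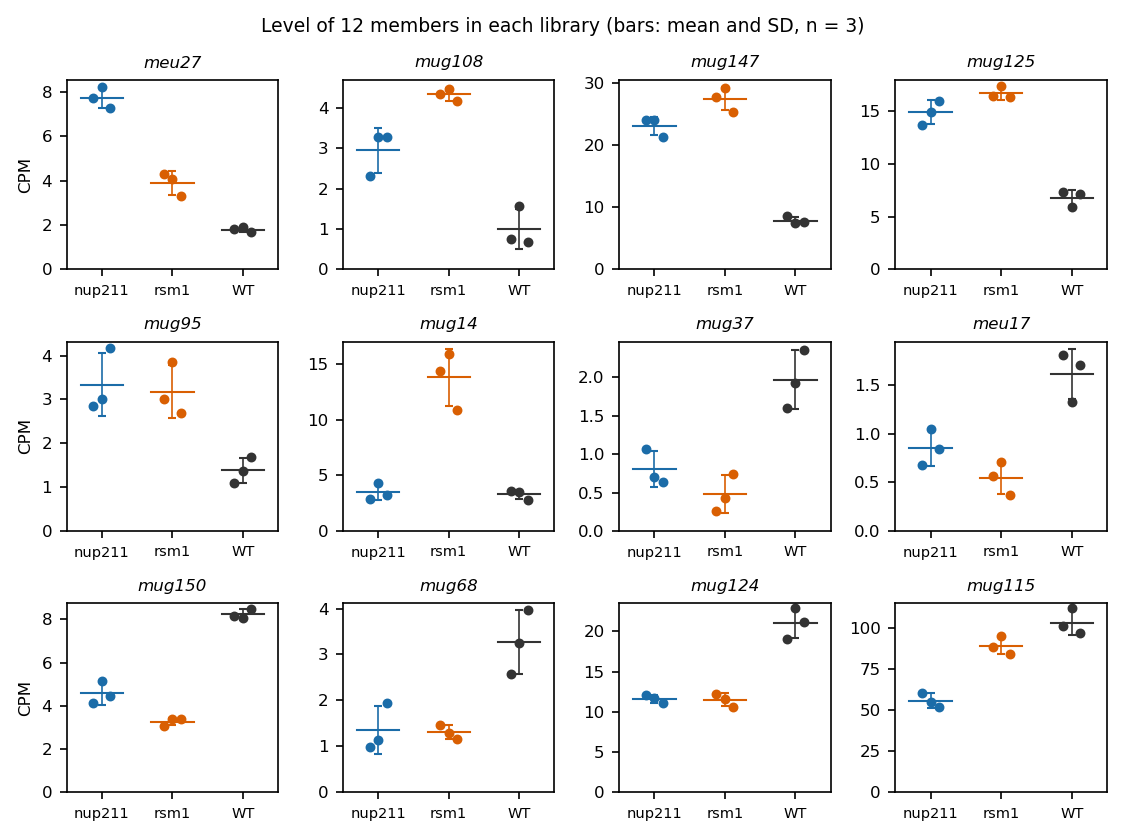
Level in CPM of 12 members in each library of nup211-1435 (labelled nup211), the libraries labelled rsm1∆ (rsm1) and WT; points are libraries, bars the mean and SD of 3. Only mug14 was high in the libraries labelled rsm1∆ alone, and mug115 was lowest in nup211-1435.

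Changes of at least 2-fold were found among weakly expressed members only. Of the 43 members with 1 to 10 CPM in WT, 9 (20.9%) changed at least 2-fold in nup211-1435 and 12 (27.9%) in the libraries labelled rsm1∆. Over all features of that level the shares were 17.8% in nup211-1435 and 18.8% in the libraries labelled rsm1∆. None of the 51 members at 10 to 100 CPM and none of the 8 at 100 CPM or more changed that much in either mutant. Over all features the shares at 10 to 100 CPM were 3.52% in nup211-1435 and 5.47% in the libraries labelled rsm1∆, and at 100 CPM or more they were 2.24% in nup211-1435 and 1.58% in the libraries labelled rsm1∆.

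**Figure D3:**
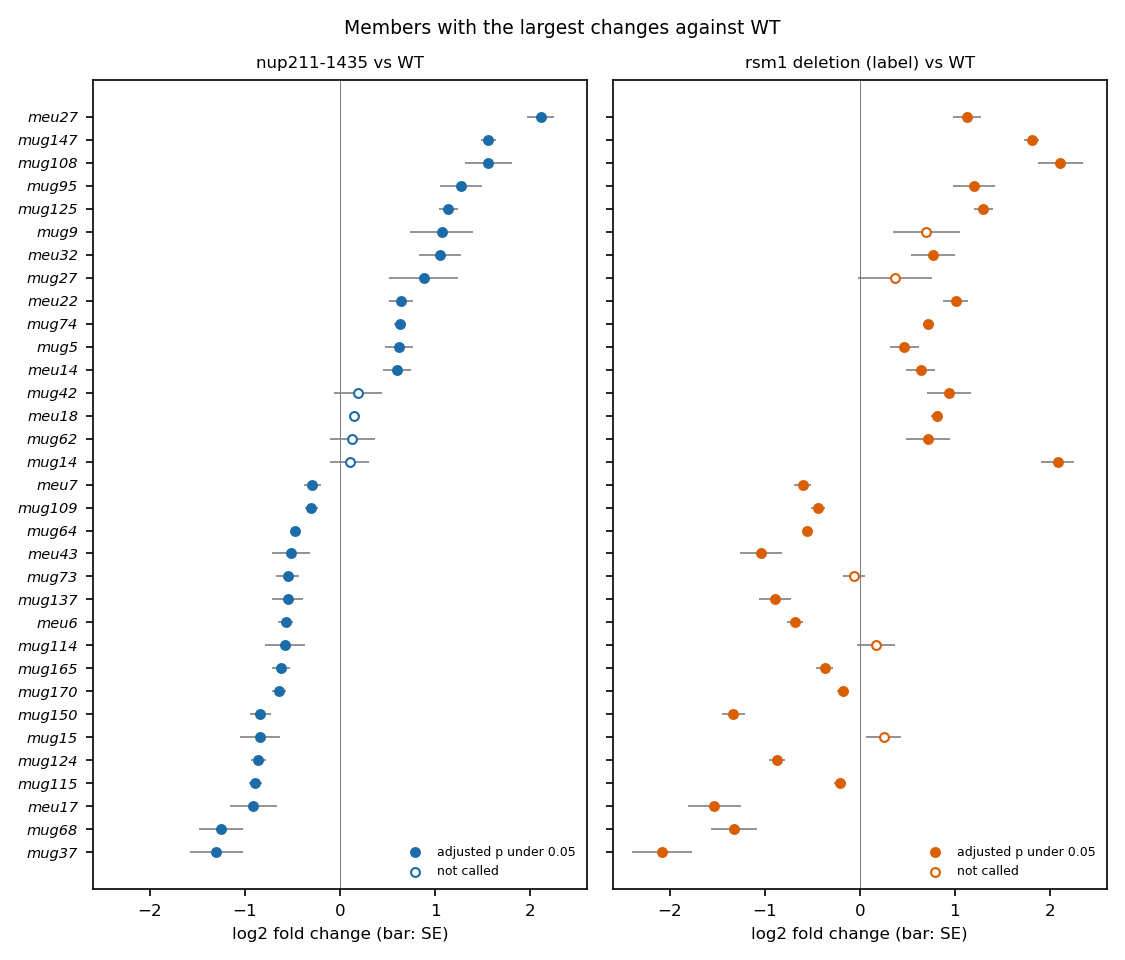
Log2 fold change against WT (points) with its standard error (bars) of the members with the largest called changes, in nup211-1435 (left, blue) and the libraries labelled rsm1∆ (right, orange); open points were not called. Genes such as mug147 and mug37 stand on the same side in both panels, while mug14 rose in the libraries labelled rsm1∆ alone and mug15 fell in nup211-1435 alone.

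In the authors' deposited table, 113 members have an adjusted p for each mutant against WT. In nup211-1435 31 of them were higher and 24 lower in the authors' deposited table at the same threshold, where 59.6% of all features pass (30.3% higher and 29.3% lower). In the libraries labelled rsm1∆ 43 were higher and 24 lower in the authors' deposited table, where 65.3% of all features pass (33.3% higher and 32.0% lower).

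Both mutants are compared with the same 3 WT libraries, so calls in the 2 comparisons share the error of WT. Members called in opposite directions were meu34, mug184, mug178 and mug56. The gene meu34, a ubiquitin ligase, had 50.5, 52.7 and 49.2 CPM in nup211-1435, 43.5, 39.3 and 38.7 CPM in the libraries labelled rsm1∆ and 43.3, 43.4 and 47.4 CPM in WT. The libraries labelled rsm1∆ overlapped with WT here. The gene mug184 had a log2 fold change against WT of 0.24 ± 0.07 in nup211-1435 and -0.19 ± 0.07 in the libraries labelled rsm1∆. The reverse pattern was that of mug178, a mitochondrial ribosomal protein gene (-0.15 ± 0.03 in nup211-1435 and 0.09 ± 0.03 in the libraries labelled rsm1∆). It was also that of mug56, with -0.07 ± 0.03 in nup211-1435 (adjusted p = 0.0499) and 0.21 ± 0.03 in the libraries labelled rsm1∆.

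When nup211-1435 was set directly against the libraries labelled rsm1∆, 12 of 108 members were higher (11.1%), 40 were lower (37.0%) and 56 were not called. Over all features tested 50.2% were called, 24.5% higher and 25.7% lower in nup211-1435. The median log2 fold change was -0.10 over the members and -0.00 over all features. With scaling by total counts the members again gave 12 higher and 40 lower, with a median of -0.11. Among all features, 1526 higher and 1602 lower became 1450 and 1650. Besides meu27 (log2 fold change 0.98 ± 0.12, adjusted p = 1.18e-05), the members higher in nup211-1435 included mug150 (0.49 ± 0.13), mug184 (0.43 ± 0.07), meu34 (0.32 ± 0.05) and meu7 (0.30 ± 0.09). For meu7 the adjusted p was 0.0151 with all libraries, 0.0552 without nup211-1435 replicate 2 and 0.0547 without nup211-1435 replicate 3.

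The largest differences the other way among members that reached 1 CPM, after mug14, were in mug15, mug114 and mug42. For mug15 the levels were 0.915, 1.71 and 1.52 CPM in nup211-1435, against 2.89, 3.34 and 2.64 CPM in the libraries labelled rsm1∆. The groups did not overlap, and the log2 fold change was -1.09 ± 0.20 (adjusted p = 0.000410). The values were -0.75 ± 0.21 for mug114 (adjusted p = 0.00768) and -0.75 ± 0.22 for mug42 (adjusted p = 0.0105). Without replicate 2 of the libraries labelled rsm1∆, that of mug42 was -0.66 ± 0.25 (adjusted p = 0.0505). A difference of at least 2-fold was called for 3 members, all lower in nup211-1435: mug14, mug15 and the silent gene meu15 (-1.19 ± 0.37, adjusted p = 0.0159). Of these, meu15 entered the test only through the libraries labelled rsm1∆, where it is high. Of all features 2.91% differed that much, 0.867% higher and 2.04% lower in nup211-1435, and 0 members were higher.

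**Figure D4:**
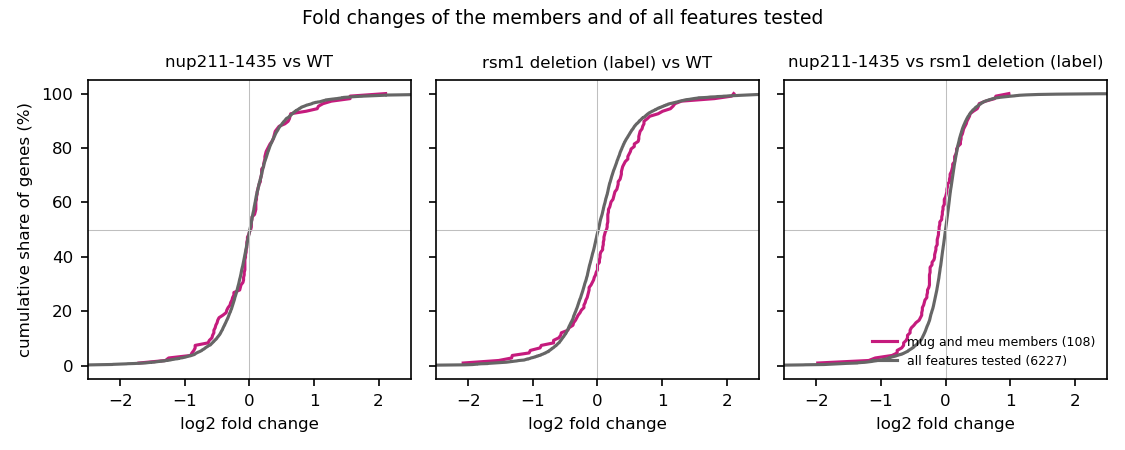
Cumulative share (%) of the 108 members tested (pink) and of all 6227 features tested (grey) against log2 fold change, for nup211-1435 against WT, the libraries labelled rsm1∆ against WT and nup211-1435 against the libraries labelled rsm1∆. The member curves cross 50% at 0.02, 0.14 and -0.10, and the curves of all features at 0.01, 0.01 and -0.00.

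Of 8 members listed for a role in meiosis or sporulation, meu6 fell and meu14 rose in both mutants, meu23 rose in the libraries labelled rsm1∆ and mug27 rose in nup211-1435. The other 4 were not called against WT. Of all features tested, 64.9% were called against WT in nup211-1435 and 70.7% in the libraries labelled rsm1∆. In meiotic chromosome work, meu13 (the Hop2-type protein of homologous pairing), mug20 (a component of the linear elements that form along meiotic chromosomes) and mug28 (an RNA-binding protein needed for spore formation) were not called in any of the 3 comparisons. For meu13 the log2 fold change was 0.46 ± 0.24 in nup211-1435 (adjusted p = 0.109) and 0.43 ± 0.24 in the libraries labelled rsm1∆ (adjusted p = 0.128), from 1.24 CPM in WT. Without WT replicate 2, or with total-count scaling, both were called, at 0.70 in nup211-1435 and 0.67 in the libraries labelled rsm1∆ without that library. The gene mug20 was at -0.24 ± 0.18 in nup211-1435 and 0.05 ± 0.18 in the libraries labelled rsm1∆. The values of mug28 were -0.35 ± 0.29 in nup211-1435 and -0.68 ± 0.31 in the libraries labelled rsm1∆. With only the 2 groups compared in the fit, mug28 was called in the libraries labelled rsm1∆, at -0.69 (adjusted p = 0.0373). Without nup211-1435 replicate 3 they were called, at -0.77 in nup211-1435 (adjusted p = 0.0382) and -0.68 in the libraries labelled rsm1∆ (adjusted p = 0.0327), and without replicate 3 of the libraries labelled rsm1∆ the value of mug28 in them was -1.01 (adjusted p = 0.0168).

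Among genes of spore formation, meu14, which guides the leading edge of the forespore membrane, rose in both mutants. It had 5.61, 6.03 and 4.95 CPM in nup211-1435 and 5.85, 5.94 and 5.15 CPM in the libraries labelled rsm1∆, against 3.00, 3.42 and 4.42 CPM in WT. Each mutant lay above all WT libraries, with log2 fold changes of 0.60 ± 0.15 (adjusted p = 0.00212) in nup211-1435 and 0.64 ± 0.15 (adjusted p = 0.00122) in the libraries labelled rsm1∆. The kinase gene mug27, which acts in growth of the forespore membrane, had 1.43, 1.13 and 0.954 CPM in nup211-1435 and 0.487, 1.38 and 0.557 CPM in the libraries labelled rsm1∆, against 0.549, 0.765 and 0.571 CPM in WT. It rose in nup211-1435 by 0.88 ± 0.36 (adjusted p = 0.0427), a call that ended with DESeq2 (adjusted p = 0.0597) and without nup211-1435 replicates 1 or 2 or WT replicates 1 or 3 (adjusted p of 0.134, 0.0769, 0.113 and 0.0994). The log2 fold changes of mug27 in nup211-1435 were then 0.72 to 0.91. Without replicate 2 of the libraries labelled rsm1∆, mug27 was higher in nup211-1435 than in those libraries by 1.16 ± 0.33 on the log2 scale (adjusted p = 0.0120), against 0.51 ± 0.34 with it (adjusted p = 0.231).

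Of the spore wall genes, meu10 was not called, with log2 fold changes of 0.03 ± 0.10 in nup211-1435 (adjusted p = 0.807) and 0.16 ± 0.10 in the libraries labelled rsm1∆ (adjusted p = 0.177). Without WT replicate 2 the value in the libraries labelled rsm1∆ was 0.29 (adjusted p = 0.0145), and with total-count scaling it was 0.30 (adjusted p = 0.0189). The spore wall assembly genes mug56 and mug65 rose in the libraries labelled rsm1∆, by 0.21 ± 0.03 and 0.15 ± 0.05. Outside the spore wall genes, meu23 was among the members listed for a role, although the annotation gives it no function. Its values were 0.22 ± 0.11 in nup211-1435 (adjusted p = 0.0962) and 0.38 ± 0.11 in the libraries labelled rsm1∆ (adjusted p = 0.00629). Without WT replicate 2, or with total-count scaling, meu23 was also called in nup211-1435, at 0.35 without that library (adjusted p = 0.00660) and 0.35 with that scaling (adjusted p = 0.0124).

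Of the 64 tested members with no annotated function, 16 rose (25.0%) and 13 fell (20.3%) in nup211-1435, against 32.9% and 32.0% of all features. In the libraries labelled rsm1∆ 28 of the 64 were higher (43.8%) and 12 lower (18.8%), against 36.7% and 34.1% of all features. The 3 members of meiotic chromosomes and meiotic RNA gave no call, and of 5 members of spore formation 3 were called in each mutant (60.0%, against 64.9% of all features in nup211-1435 and 70.7% in the libraries labelled rsm1∆). Of 8 metabolic and glycan enzymes 3 rose and 3 fell in nup211-1435, and 5 were higher and 2 lower in the libraries labelled rsm1∆, with meu17 and the alpha-1,6-mannanase gene mug191 as the extremes among called values in nup211-1435 (-0.91 ± 0.25 and 0.40 ± 0.05). Of 8 proteins of transport and membrane traffic 2 rose and 4 fell in nup211-1435, and 3 were higher and 2 lower in the libraries labelled rsm1∆. The acetate transporter gene mug86 was at -0.10 ± 0.06 in nup211-1435 (adjusted p = 0.174) and rose by 0.51 ± 0.06 in the libraries labelled rsm1∆ (adjusted p = 2.02e-06). The noncoding RNAs gave 1 call against WT, a rise of meu19 by 0.38 ± 0.12 in nup211-1435 (adjusted p = 0.00883).

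Many members share their place in the genome with a feature on the other strand. In the ASM294v3 annotation 69 of 115 members had some exon base under an opposite-strand feature that was counted, 47 had at least 50% of the exon covered and 19 were covered in full, while the exons of 39 overlapped no counted feature. The kit keeps the strand, but the strand setting of the counting was not given in the sources used here. If strand was not used, reads of a member and its antisense partner cannot be told apart. Of the 19 fully covered members all 19 had counts in WT, and mug28 averaged 1.51 CPM in WT under mrp17 at 106 CPM.

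Of the 44 tested members with at least 50% of the exon covered, 5 (11.4%) changed at least 2-fold in nup211-1435 and 9 (20.5%) in the libraries labelled rsm1∆. Of the 37 tested members that overlap nothing, the numbers were 3 (8.11%) in nup211-1435 and 2 (5.41%) in the libraries labelled rsm1∆. Among all features tested the shares were 6.38% in nup211-1435 and 7.53% in the libraries labelled rsm1∆. At 1 to 10 CPM in WT they were 17.8% and 18.8% of all features. The covered and the other members were not matched in WT level, and no difference between them was tested. In nup211-1435, 9 of the 44 fell, and the partner with the longest overlap rose for 6 of them, fell for 1 and was not called for 2. In the libraries labelled rsm1∆ 10 fell, with a partner that rose for 8 and was not called for 2. Of the 11 that rose in nup211-1435 the partner rose for 3, fell for 0 and was not called for 8, and of the 17 that rose in the libraries labelled rsm1∆ it rose for 4, fell for 6 and was not called for 7. Of the members that were not called, the partner rose for 12 of 24 in nup211-1435 and for 7 of 17 in the libraries labelled rsm1∆. Among all features tested, 32.9% rose and 32.0% fell in nup211-1435. In the libraries labelled rsm1∆ 36.7% rose and 34.1% fell.

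Among members that fell, the pairs with the largest opposite changes were meu17 with SPNCRNA.1494, mug68 with SPNCRNA.815, and meu6 with clr4, the gene of the histone H3 lysine-9 methyltransferase. While meu17 fell, SPNCRNA.1494 rose by 0.79 ± 0.10 in nup211-1435 and 1.31 ± 0.10 in the libraries labelled rsm1∆ on the log2 scale. The RNA SPNCRNA.815 opposite mug68 rose by 0.68 ± 0.05 in nup211-1435 and 1.03 ± 0.05 in the libraries labelled rsm1∆. For clr4, whose exons cover meu6 in full, the rises were 0.85 ± 0.05 in nup211-1435 and 0.82 ± 0.05 in the libraries labelled rsm1∆. Among members that rose in the libraries labelled rsm1∆, meu18 (0.81) stood opposite SPNCRNA.1417 (-1.04) and mug95 (1.20) opposite SPNCRNA.1045 (-0.48). Neither pair had called opposite changes in nup211-1435. There SPNCRNA.1417 fell (-1.09) while meu18 was not called (0.15), and mug95 rose (1.27) while SPNCRNA.1045 was not called (-0.21). These partners were looked up after the members' values were seen, and no test was made of the relation.

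**Figure D5:**
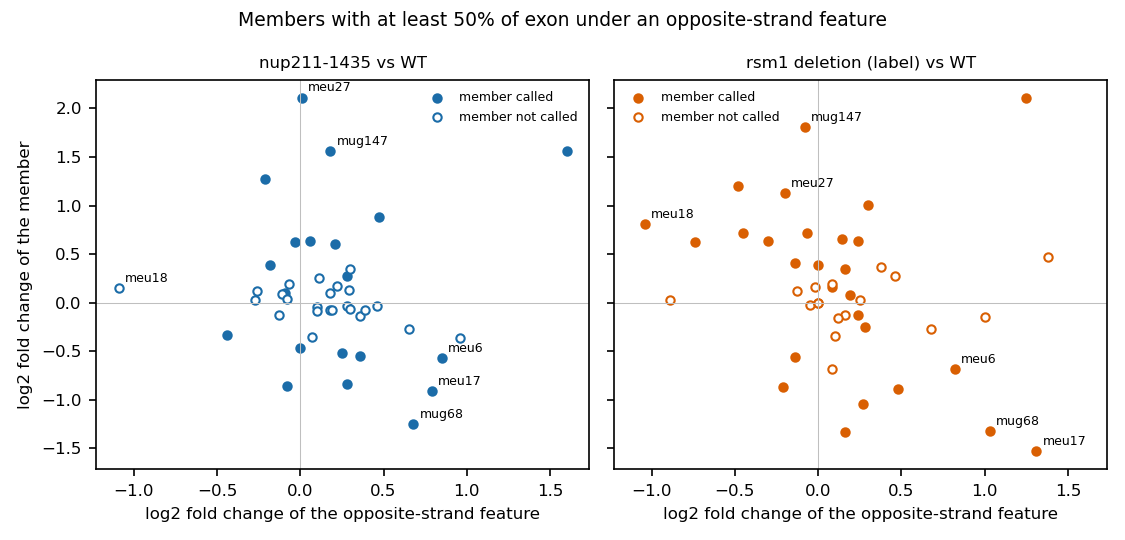
Log2 fold change of each tested member with at least 50% of its exon under opposite-strand features, against that of the partner with the longest overlap, in nup211-1435 against WT (left) and the libraries labelled rsm1∆ against WT (right); filled points are called members. The lower right of both panels holds meu17, mug68 and meu6.

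Outside the members, mei3 and atf31 led the genes of meiotic entry that rose in both mutants. Of 19 genes of entry and its transcription factors, 9 rose and 2 fell in nup211-1435 (47.4% and 10.5%, against 32.9% and 32.0% of all features), and 14 were higher and 3 lower in the libraries labelled rsm1∆ (73.7% and 15.8%, against 36.7% and 34.1% of all features). The median log2 fold changes of the list were 0.26 in nup211-1435 and 0.75 in the libraries labelled rsm1∆. The list also holds pat1 and mmi1, whose products hold meiosis back, so its rises do not all point 1 way. In the libraries labelled rsm1∆ pat1 was among the rises and mmi1 among the falls, and neither was called in nup211-1435. The level of mei3, the gene of the Pat1 inhibitor, was 1.33 ± 0.104 CPM in nup211-1435 and 1.56 ± 0.414 CPM in the libraries labelled rsm1∆, against 0.376 ± 0.0691 CPM in WT (SD, n = 3 each). The WT mean of mei3 was under the filter level of 0.395 CPM, so mei3 could pass the filter through the mutants, where it is high. That of atf31, a transcription factor gene, was 20.9 CPM in nup211-1435 and 24.5 CPM in the libraries labelled rsm1∆, against 6.04 CPM in WT. For mei2 the mutants parted: its mean was 17.8 CPM in nup211-1435 and 95.8 CPM in the libraries labelled rsm1∆, against 66.8 CPM in WT, with log2 fold changes of -1.91 ± 0.05 (adjusted p = 4.93e-13) and 0.52 ± 0.05 (adjusted p = 7.93e-08). The other falls named by the same rule were fkh2 in nup211-1435 (-0.16 ± 0.05) and cuf2 (-1.28 ± 0.50, adjusted p = 0.0316) and rep2 (-0.38 ± 0.04) in the libraries labelled rsm1∆. The mean of cuf2 was 0.250 CPM there, under the filter level of 0.395 CPM, against 0.607 CPM in WT.

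Genes of recombination and of meiotic chromosomes moved in both directions. Of 33 tested, 13 rose and 5 fell in nup211-1435 (39.4% and 15.2%, against 32.9% and 32.0% of all features), and 12 were higher and 8 lower in the libraries labelled rsm1∆ (36.4% and 24.2%, against 36.7% and 34.1%). In nup211-1435 dhc1, the dynein heavy chain that moves the nucleus in meiotic prophase, rose by 1.42 ± 0.06 and the kinase gene mek1 by 0.80 ± 0.22, while mcp7 (-1.22 ± 0.09) and hop1 (-0.72 ± 0.19) fell. In the libraries labelled rsm1∆ bqt2 (1.09 ± 0.30) and mek1 (0.92 ± 0.22) rose, and rec27 (-1.84 ± 0.48) and mde2 (-0.95 ± 0.39) fell. Both falls were at very low levels. The mean of rec27 was 0.151 CPM in the libraries labelled rsm1∆ against 0.550 CPM in WT. That of mde2 was 0.376 CPM against 0.741 CPM in WT. Their means in the libraries labelled rsm1∆ were under 0.395 CPM, the level of the filter. This list also took in hrs1, which in the annotation is a histidine tRNA ligase gene and fell in both.

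In the sporulation list, 14 of 30 tested genes rose and 7 fell in nup211-1435 (46.7% and 23.3%, against 32.9% and 32.0% of all features), and 16 were higher and 7 lower in the libraries labelled rsm1∆ (53.3% and 23.3%, against 36.7% and 34.1%). The alpha-glucan synthase genes mok12 (1.40 ± 0.04) and mok13 (1.37 ± 0.04) led in nup211-1435, and the kinase gene pit1 (1.28 ± 0.06) and mok13 (1.12 ± 0.04) in the libraries labelled rsm1∆. The falls were led by spo13 (-2.04 ± 0.40) and isp3 (-0.89 ± 0.09) in nup211-1435 and by spn6 (-1.31 ± 0.16) and adg1 (-1.05 ± 0.08) in the libraries labelled rsm1∆. The mean of spo13 was 0.239 CPM in nup211-1435, under the filter level of 0.395 CPM, against 1.00 CPM in WT. A kinetochore gene, fta1, was in this list through an older name and rose in both. Of 24 genes of Mmi1 and the RNA elimination machinery, 8 rose and 7 fell in nup211-1435 (33.3% and 29.2%), and 6 were higher and 13 lower in the libraries labelled rsm1∆ (25.0% and 54.2%), all by less than 2-fold. In nup211-1435 not1, the scaffold of the Ccr4-Not deadenylase (0.50 ± 0.03), and the exosome nuclease gene rrp6 (0.43 ± 0.03) rose and cti1 (-0.51 ± 0.04) and red1 (-0.28 ± 0.04) fell. In the libraries labelled rsm1∆ rrp6 (0.40 ± 0.03) and the helicase gene mtl1 (0.31 ± 0.03) rose and cti1 (-0.43 ± 0.04) and red1 (-0.39 ± 0.04) fell.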

How the data were processed

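Poly(A)+ RNA of 3 strains, 3 biological replicates each, was sequenced with a stranded kit. The authors' deposited table holds raw read counts per feature. The submitters' processing notes name HISAT2 2.1.0, SAMtools, HTSeq 0.10.0 and DESeq2, and assembly ASM294v2; the strand setting of the counting is not given in the sources used here. The authors' deposited comparisons of each mutant with WT give log2 fold changes and p-values, of which only calls were counted here. Feature identifiers were matched to RefSeq names of ASM294v3: 6836 of 6988 by identifier, 12 by synonym and 140 not at all. Coordinates and sequences are not given, because the build differs. All 9 libraries entered one edgeR 4.0.16 fit (R 4.3.3) with TMM scaling, a filter on low counts (minimum count 10, minimum total 15), a robust quasi-likelihood test and Benjamini-Hochberg adjustment over 6227 features, tested on simulated data. SE is the log2 fold change divided by the square root of F. Alternatives were DESeq2 1.42.0, other scalings, no filter, a fold minimum of 2, only the groups compared, a replicate block and leaving out each library. The depth per library and the worth of 3 counts, which covers counting error only, stand in the report. Named members were the 12 largest called rises and falls against WT with at least 1 CPM in either group. For the mutants against each other 5 each way were named. Also named were the 5 highest in WT in CPM and in CPM per kilobase of exon (RPKM). So were 3 on each side of 1 CPM. A further 8 were listed for a role in meiosis or sporulation, although meu23 has no annotated function. A ninth such name, mug79, is not a member here. Other genes were the 2 largest called changes each way in 4 lists, in which 2 names, msh4 and mat1-Pc, had no match among lists and markers. Members, lists and rules were chosen with earlier results of these data known. The values of 1 opposite-strand feature are not reported here.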

Additional observations from a re-analysis of the deposited data

How the results depend on the processing

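With total-count scaling the members that fell numbered 16 in nup211-1435 against WT and 14 in the libraries labelled rsm1∆ against WT, and 47 rose in nup211-1435, while the share of higher calls over all features was 71.1% in nup211-1435 (50.7% with TMM) and 69.2% in the libraries labelled rsm1∆ (51.9% with TMM). With a 2-fold minimum, 7 members rose and 3 fell in nup211-1435 (397 of all features called), 8 were higher and 6 lower in the libraries labelled rsm1∆ (469) and 0 were higher and 3 lower in nup211-1435 than in the libraries labelled rsm1∆ (181). The causes were not tested beyond the smaller set that a minimum leaves. Leaving out 1 library gave 27 to 31 rises and 22 to 25 falls in nup211-1435, 37 to 46 rises and 18 to 24 falls in the libraries labelled rsm1∆, 9 to 13 members higher and 32 to 40 lower in nup211-1435 than in the libraries labelled rsm1∆, and 12 to 13 silent members. Over all features it gave 3748 to 4033 calls in nup211-1435, 4095 to 4446 in the libraries labelled rsm1∆ and 2635 to 3225 between the mutants. The silent count was 11 with every WT library under 1 CPM, 16 under 1 RPKM, 9 under 0.5 CPM and 14 with total-count scaling.

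Replicate numbers did not pair the samples: deviations of same-numbered libraries correlated at -0.08 to 0.082. With a replicate block 32 members rose and 24 fell in nup211-1435, 44 were higher and 23 lower in the libraries labelled rsm1∆, and 11 were higher and 40 lower in nup211-1435 than in the libraries labelled rsm1∆. The block added calls for meu23 in nup211-1435 (0.22, adjusted p = 0.0480) and for mug28 in the libraries labelled rsm1∆ (-0.67, adjusted p = 0.0496). Of 78 single log2 fold changes, 459 recomputed with other processing stayed on the same side of the threshold and in direction, 2 lost and 7 gained a call and 0 reversed. Without 1 library, 669 stayed, 13 lost and 8 gained a call, and 12 reversed sign, none of them called: meu10 in nup211-1435 (range -0.06 to 0.16), mug20 (-0.07 to 0.20) and mug27 (-0.28 to 0.66) in the libraries labelled rsm1∆, and meu13 (-0.15 to 0.14), meu14 (-0.10 to 0.04) and mug28 (-0.09 to 0.66) between the mutants. At 20984220 counts, 3 counts are worth 0.139 CPM. The filter left 7 members untested, and without it 113 members were tested.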

Other observations

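Members next to each other in the order of protein-coding genes formed 4 pairs. In the pair mug177 and mug58, whose exons overlap on opposite strands, the WT levels were 13.4 CPM for mug177 and 98.6 CPM for mug58. The pair mug57 and mug97 had 80.0 and 3.45 CPM in WT, mug116 and mug86 had 0.0141 and 23.5 CPM, and mug105 and meu29 had 36.0 and 58.0 CPM. Of the 108 members tested, 23 were called in none of the 3 comparisons. The share of all features called in none was not counted. Against WT, 50.9% of the members were called in nup211-1435 and 62.0% in the libraries labelled rsm1∆, against 64.9% and 70.7% of all features. Between the mutants 48.1% of the members and 50.2% of all features were called.

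The 92 genes renamed from a mug or meu name gave 32 rises and 18 falls among 91 tested in nup211-1435 (35.2% and 19.8%), and 43 rises and 19 falls in the libraries labelled rsm1∆ (47.3% and 20.9%). Over all features tested the shares were 32.9% and 32.0% in nup211-1435, and 36.7% and 34.1% in the libraries labelled rsm1∆. The median log2 fold change of these genes was 0.09 in nup211-1435 and 0.12 in the libraries labelled rsm1∆. No difference from the members was tested.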
